A study of Mus musculus with 2 samples.

Results

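Metallothionein-high tumor cells were the 5% of tumor cells of these pancreatic tumors that gave the largest share of their RNA counts to Mt1 and Mt2, the pair of widely used metallothionein genes. They numbered 526 of 10513 cells taken as tumor cells by the marker limits given below, and of 24282 cells in all. The cells came from KPC mouse pancreatic tumors grown in the pancreas and treated with DMSO, the vehicle, or with 10 mg/kg of EIPA, which blocks macropinocytosis, the bulk uptake of fluid by cells. Each of the 2 samples pooled 4 tumors. RNA was measured with a probe-based single-cell assay on fixed cells from frozen tumors. The cell barcodes end in the number of their library, 1 or 2, and the labels do not say which treatment either number stands for. Every value is therefore given for library 1 and for library 2, with no treatment direction. With 1 library per treatment and pooled tumors there is no replicate, so no test or p-value is given, and every interval covers counting error only.

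Metallothioneins are small, cysteine-rich proteins that bind zinc and copper and buffer their free levels in the cell. Their genes are known to be switched on by MTF1, a zinc-sensing factor that binds metal response elements, and also by glucocorticoids, oxidative stress and low oxygen. Pancreatic tumors are poorly perfused, and in cells short of oxygen the hypoxia-inducible factors switch on genes of glucose uptake, glycolysis and vessel growth.

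The sequences below are the 250 bases before the RefSeq transcript starts (build GRCm38.p6) of the genes that chose the cells, Mt1 and Mt2, and of Adm, which had the largest ratio of the other genes tested (those past the minimum level given below). All 3 lie on the + strand, at chr8:94178839-94179088 for Mt1, chr8:94172368-94172617 for Mt2 and chr7:110627407-110627656 for Adm. In Mt1 and Mt2 the capitals mark matches to the core of the metal response element (TGCACNC or TGCGCNC, either strand), and in Adm they mark matches to the core of the hypoxia response element (ACGTG or GCGTG, either strand).
Mt1: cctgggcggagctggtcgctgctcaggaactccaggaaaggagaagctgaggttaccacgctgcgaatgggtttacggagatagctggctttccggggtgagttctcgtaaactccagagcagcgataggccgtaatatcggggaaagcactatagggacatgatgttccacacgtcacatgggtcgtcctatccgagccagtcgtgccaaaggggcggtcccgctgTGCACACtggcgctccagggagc
Mt2: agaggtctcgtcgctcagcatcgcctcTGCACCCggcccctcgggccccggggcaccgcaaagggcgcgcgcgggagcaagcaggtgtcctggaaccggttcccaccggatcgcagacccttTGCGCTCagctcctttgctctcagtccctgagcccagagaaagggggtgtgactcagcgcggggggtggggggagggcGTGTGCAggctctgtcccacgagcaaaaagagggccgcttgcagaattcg
Adm: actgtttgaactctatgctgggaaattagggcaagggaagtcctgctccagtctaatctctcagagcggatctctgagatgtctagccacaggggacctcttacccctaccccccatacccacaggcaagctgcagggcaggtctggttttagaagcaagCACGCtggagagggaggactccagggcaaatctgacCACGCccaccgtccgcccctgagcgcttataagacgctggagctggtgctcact
The Mt1 window held 1 match to the metal core, 23 to 17 bases before the start, and 2 to the hypoxia core that are not in capitals. The Mt2 window held 3 metal matches and 1 hypoxia match, which overlaps the metal match 50 to 44 bases before the start. The Adm window held no metal match and 2 hypoxia matches. Of 32851 RefSeq promoter windows of the same length, 21.4% held the metal core and 38.6% the hypoxia core. Of 7474 tested genes matched by symbol, 35.3% held the metal core in at least 1 window and 64.5% the hypoxia core. Such matches are thus common and describe letters, not sites in use. The windows follow the annotated start and say nothing of sequence beyond it. The Mt2 gene ends 5513 bases before the Mt1 gene starts, on the same strand, in the GENCODE M21 annotation.

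Library 1 held 12337 barcodes with 203459556 unique molecular identifiers (UMIs, each a counted RNA molecule), and library 2 held 11945 with 185474400. The median was 11695 and 10756 UMIs per barcode. Tumor cells, called base cells here, were taken as barcodes with at least 3000 UMIs, at most 1 UMI of the leukocyte gene Ptprc, collagens Col1a1, Col1a2 and Col3a1 under 0.3% of UMIs, keratins Krt8 and Krt18 at or over 0.2% and Epcam under 0.04%. These steps left 5213 base cells in library 1 and 5300 in library 2. The libraries share 225 barcode sequences, 47 of them among base cells and 0 among the metallothionein-high cells. Doublets were scored and not removed. The median doublet score was 0.0408 and 0.0471 in the metallothionein-high cells and 0.0594 and 0.0550 in the other base cells.

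Library 1 held 146 metallothionein-high cells, 2.80% of its base cells (exact 95% interval 2.37 to 3.29), and library 2 held 380, 7.17% (6.49 to 7.90). Library 2 thus supplied 72.2% of them. The lowest chosen cell had 0.166% of its UMIs on Mt1 and Mt2, and the highest cell left out also had 0.166%. The 50 cells just inside the threshold reached up to 0.177%, and the 50 just outside went down to 0.158%. Metallothionein share formed 1 continuous distribution, and 180 base cells lay within 10% of the threshold, so the cells are the upper end of a range and not a separate type. In both libraries together 10.6% of base cells had no Mt1 or Mt2 UMI.

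**Figure D1:**
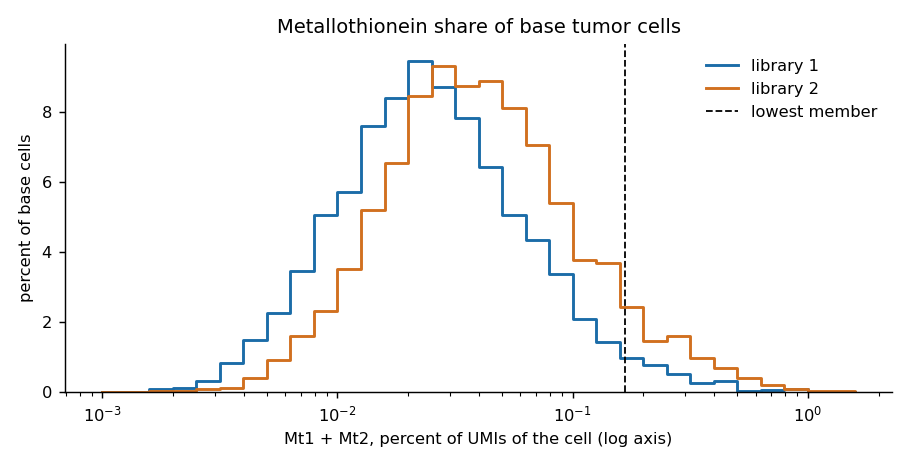
Distribution of the Mt1 plus Mt2 share of UMIs (log axis) over the base cells of library 1 and library 2, as percent of base cells per bin; the 10.6% of cells with no such UMI are not drawn. Both libraries form a single peak, library 2 lies further right, and the dashed line at 0.166% marks the lowest chosen cell.

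Mt1 and Mt2 chose the cells, so their levels are a description. Mt1 stood at 2070 CPM (a gene's UMIs summed over the cells and scaled to all UMIs of those cells) against 234 in the other base cells of library 1, and at 2142 against 332 in library 2. Mt2 stood at 842 against 56.6 and at 916 against 110. When cells were chosen by Mt1 alone, 82.9% and 89.6% of those chosen were the same cells, and Mt2, which then had no part in the choice, stood 12.5-fold (11.8 to 13.2) and 7.36-fold (7.14 to 7.59) higher in them. The other metallothioneins of the same chromosome 8 cluster were scarce. Mt3, known mainly from brain, had 7 and 83 UMIs in the metallothionein-high cells, and Mt4, known from squamous epithelium, had 0 and 1.

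Of the 5 genes given as markers of these cells, Vldlr stood higher beside Mt1 and Mt2, while Mmp13 and Crisp1 did not. The markers were given with earlier results of these data known, so Vldlr is a description and no independent support. Vldlr, a receptor for triglyceride-rich lipoproteins and reelin, stood at 127 CPM against 27.0 in library 1 and at 139 against 28.2 in library 2, or 4.71-fold (4.16 to 5.33) and 4.92-fold (4.58 to 5.28) higher. Mmp13, a collagenase, stood at 243 against 525 in library 1 and at 524 against 559 in library 2. The library 2 value differed between the clusters described below. Within them its log2 ratio was -1.73 in cluster 1, -1.43 in cluster 3 and -1.95 in cluster 7. It was -0.44 in cluster 5, -0.01 in cluster 4 and 0.49 in cluster 10. Crisp1, a cysteine-rich secretory protein known from the epididymis, stood at 39.8 against 42.9 and at 98.7 against 98.98. In library 1 3 cells gave 38.2% of its UMIs in the metallothionein-high cells. Its log2 ratio was -0.70 and -0.14 without the 3 highest cells, and -0.45 and -0.31 without cluster 5. Against base cells of like hypoxia share it was 0.58 and 0.29. The label is therefore kept only for the metallothionein share by which the cells were chosen.

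The cells were checked for markers of other cell types. Krt8 and Krt18 made up a median of 0.325% and 0.354% of UMIs in the metallothionein-high cells and 0.314% and 0.349% in the other base cells. The 7 tumor epithelial markers, which include genes of the selection (Krt8, Krt18 and Epcam), together made up a median of 0.600% and 0.627% against 0.496% and 0.551%. Summed fibroblast markers had medians of 0.0148% and 0.0171% against 0.0142% and 0.0205%. Macrophage markers had medians of 0.0230% and 0.0258% against 0.0182% and 0.0290%, and summed levels of 420.5 against 243.6 CPM in library 1 and 338 against 356 in library 2. Neutrophil markers summed to 41.6 against 16.5 CPM in library 1 and to 11.6 against 13.5 in library 2. Clusters 8 and 12, described below, were led by macrophage and endothelial genes. Without them the macrophage list's median log2 ratio went from 0.59 to -0.14 in library 1 and from -0.08 to -0.32 in library 2. The part of neutrophils in the library 1 values was not tested. The medians of the neutrophil, T cell, B or plasma cell, endothelial, pericyte, acinar and islet lists were 0 in both sets of cells, and the mesothelial list had medians of 0.0634% and 0.0574% against 0.0684% and 0.0671%. Ms4a1, Mzb1, Sst, Upk3b and Lrrn4 had no UMI in the metallothionein-high cells of either library.

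The metallothionein-high cells were somewhat shallower, with a median of 13244 and 16919 UMIs against 17491 and 17869.5, and 4998 and 5657 genes against 5773 and 5825. Their mitochondrial share was 0.469% against 0.372% in library 1 and 0.413% against 0.496% in library 2. When the cells were compared with base cells of like depth, 71 genes in place of the 79 below stood higher.

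In both libraries the metallothionein-high cells stood higher in genes of the hypoxia and glycolysis list, and few genes stood lower. Of 9330 genes with at least 10 CPM over the base cells of each library, 79 were at least 2-fold higher in both libraries (0.847%) and 8 at least 2-fold lower (0.0857%), on a log2 scale of CPM plus 1. In library 1 alone 151 were higher (1.62%) and 60 lower (0.643%), and in library 2 alone 96 (1.03%) and 26 (0.279%). No gene passed 2-fold in opposite directions in the 2 libraries. The median log2 ratio over all tested genes was -0.02 and -0.04.

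Adm stood furthest apart of the genes past the 10 CPM minimum that had no part in the choice. The minimum was taken over metallothionein-high and other base cells together. In library 2 the other base cells alone had 8.79 CPM of Adm, so it passed there only with the metallothionein-high cells counted. Adm encodes adrenomedullin, a peptide that widens vessels, and stood at 126 CPM against 12.2 in library 1 (10.3-fold, 9.01 to 11.7) and at 70.5 against 8.79 in library 2 (8.02-fold, 7.20 to 8.93). Ndrg1, a stress-responsive gene known from hypoxia, stood at 1146 against 272 and at 952 against 223 CPM. Ero1l, which makes the oxidase that drives disulfide formation in the endoplasmic reticulum, stood at 449 against 105 and at 364 against 97.6. Bnip3, a mitophagy receptor, stood at 109 against 30.7 and at 122 against 33.7. In each of these 4 genes the intervals of the fold lay above 2 in both libraries.

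The hypoxia and glycolysis list was the pathway list with the most genes past 2-fold. Of its 25 tested genes 15 stood at least 2-fold higher in both libraries, 24 stood above 0 in both, as 2706 of all 9330 tested genes did (29.0%), and none was lower. The median log2 ratio was 1.35 and 1.22, beside -0.02 and -0.04 over all tested genes. The list was chosen with earlier results of these data known, so its count describes the cells and is no independent support.

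Its members fell into several roles. Among the oxygen sensors, Egln1, a prolyl hydroxylase that marks the hypoxia-inducible factors for destruction, stood at 796 against 254 CPM and at 793 against 246, and its relative Egln3 at 488 against 177 and at 401 against 152. Car9, a cell-surface carbonic anhydrase, stood at 671 against 235 and at 699 against 203. Vegfa, the main growth factor of vessels, stood at 2023 against 778 and at 1475 against 670. All 4 thus stood between 2.2-fold and 3.4-fold higher in each library.

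Genes of glucose uptake and glycolysis were also on the list. Slc2a1, the glucose transporter GLUT1, stood at 887 against 320 CPM and at 850 against 359. The phosphofructokinase Pfkp, which is not on the list, stood at 328 against 78.4 and at 321 against 77.7, and Pfkfb3, whose product makes the activator of phosphofructokinase, at 213 against 75.5 and at 137 against 66.1. Pdk1, which turns down entry of pyruvate into mitochondria, stood at 120 against 53.2 and at 132 against 49.7. Hk2, a hexokinase, had log2 ratios of 1.01 and 0.96, and Tpi1, triosephosphate isomerase, 1.20 and 1.095. Ldha, lactate dehydrogenase, stood at 1249 against 662 and at 1310 against 709, a log2 ratio of 0.91 and 0.89, and Pkm, pyruvate kinase, at 1219 against 683 and at 876 against 538, with log2 ratios of 0.83 and 0.70. Pfkfb4 was the list gene that did not stand higher in both, at 17.4 against 17.4 and at 15.5 against 20.8.

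**Figure D2:**
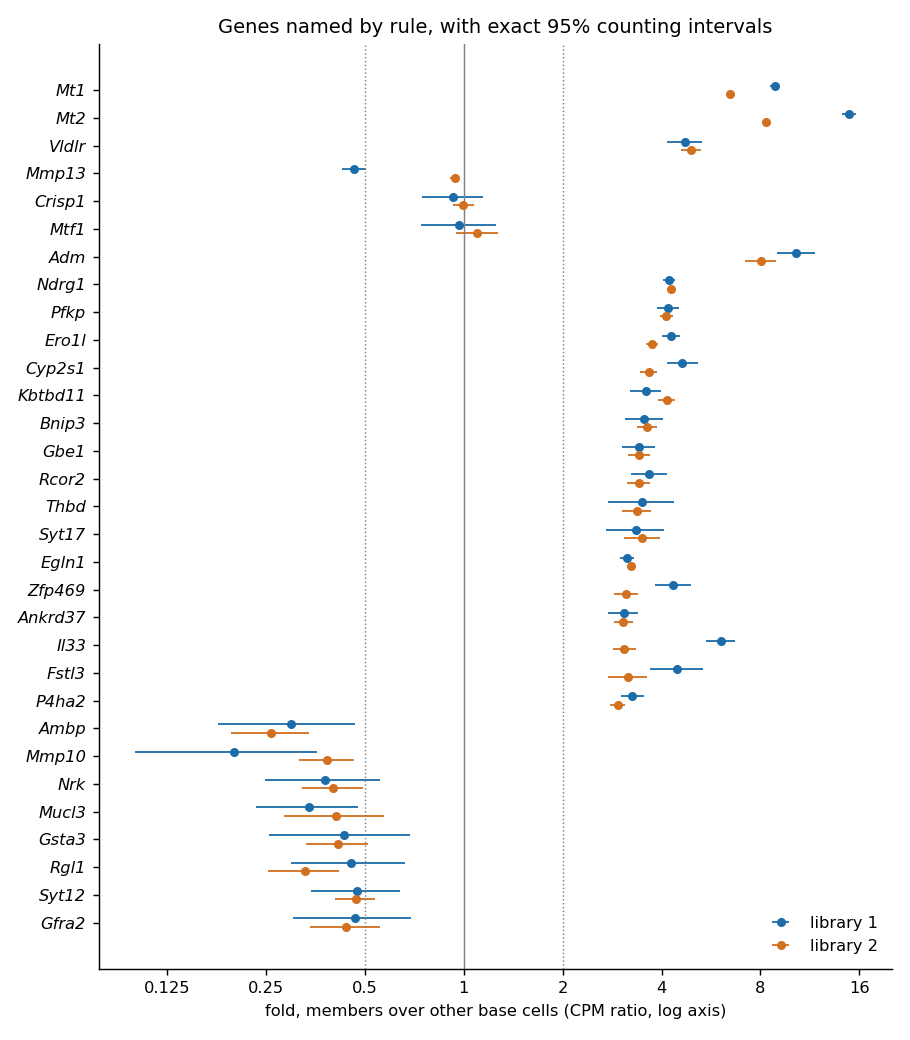
Fold of the summed CPM in metallothionein-high cells (members) over other base cells for the genes named by rule (log axis), with exact 95% counting intervals, in library 1 and library 2; dotted lines mark 2-fold. Adm lies furthest right of the genes outside the rule, Mtf1 and Crisp1 lie near 1, and Mmp13 lies under 1.

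Several genes outside the list, picked here after their values were seen, belong to glycogen storage. Gbe1, the glycogen branching enzyme, stood at 143 against 42.0 CPM in library 1 and at 108 against 31.8 in library 2. Gys1, glycogen synthase, stood at 273 against 94.3 and at 268 against 96.6. Pgm1, a phosphoglucomutase, stood at 178 against 69.8 and at 164 against 66.1, and Ppp1r3b, which directs a phosphatase to glycogen, at 104 against 47.4 and at 94.9 against 42.3. All 4 were among the 79 genes.

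The 79 also held genes of the matrix and of secreted signals. Loxl2, a collagen cross-linking oxidase, stood at 81.9 against 23.4 CPM and at 78.2 against 27.4, P4ha2, a collagen prolyl hydroxylase, at 293 against 90.1 and at 244 against 83.1, and Acan, the proteoglycan aggrecan, at 684 against 193 and at 688 against 342. Fstl3, which binds activin, stood at 56.4 against 12.7 and at 33.8 against 10.7. Pgf, placental growth factor, stood at 197 against 48.2 and at 126 against 56.1.

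Il33 and Thbd rested in part on a few cells. Il33, an alarmin cytokine, stood at 198 against 32.6 CPM in library 1 and at 96.2 against 31.3 in library 2. Without the 3 cells that gave the most Il33 UMIs in each library, its log2 ratio went from 2.56 to 2.08 and from 1.59 to 1.54. Thbd, thrombomodulin, stood at 36.7 against 10.5 and at 62.2 against 18.5, and its log2 ratio went from 1.71 to 1.03 and from 1.70 to 0.88 without 3 cells. Thbd was thus no longer 2-fold higher in library 2.

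The remaining genes named by rule were also higher in both. Cyp2s1, a cytochrome P450, stood at 168 against 36.2 CPM and at 183 against 50.1, Kbtbd11, which has a kelch and a BTB domain, at 161 against 44.9 and at 186 against 44.9, and Rcor2, a corepressor, at 123 against 33.6 and at 103 against 30.3. Syt17, Zfp469 and Ankrd37 had log2 ratios between 1.59 and 2.08 in the 2 libraries. Cdkn1a, an inhibitor of the cell cycle, stood at 358 against 89.9 and at 299 against 102.

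The 8 genes that stood lower were all low in level. Ambp, the precursor of a protease inhibitor of plasma, stood at 8.50 CPM against 28.6 in library 1 and at 7.30 against 28.2 in library 2. Mmp10, a stromelysin, stood at 4.92 against 24.7 and at 14.9 against 38.8. The others were Nrk, Mucl3, Gsta3, Rgl1, Syt12 and Gfra2, with log2 ratios between -1.51 and -1.03 in the 2 libraries. With 10 CPM added in place of 1, only 1 gene was still called lower.

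Mtf1 and the medians of the zinc transporter lists stood near the level of the other base cells, while Slc30a1 stood higher in library 1 only. Mtf1, the zinc-sensing factor, stood at 26.8 against 27.7 CPM in library 1 and at 24.9 against 22.7 in library 2. Slc30a1, a zinc exporter known as a target of that factor, stood at 24.2 against 16.04 (1.51-fold, 1.13 to 1.97) and at 13.6 against 14.4 (0.939-fold, 0.762 to 1.15). Of 6 tested zinc exporters and 10 zinc importers, 0 passed 2-fold in either direction in both libraries. Over all tested genes 0.847% passed higher and 0.0857% lower. At those shares a list this short would mostly hold 0, so such counts say little about it. Median log2 ratios were -0.06 and -0.08 for the exporters and -0.24 and 0.00 for the importers. Of 16 tested genes of copper and iron handling, 1 stood higher, with a median of -0.10 in each library.

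That gene was Hmox1, heme oxygenase, at 81.0 against 22.0 CPM and at 35.6 against 14.9. Without the 3 cells with the most Hmox1 UMIs in each library its log2 ratio went from 1.83 to 1.67 and from 1.20 to 0.94, and without clusters 8 and 12, described below, it was 0.98 in library 2, so it was then not 2-fold higher there. It was also the single gene of 18 tested targets of NRF2, the factor of the oxidative stress response, that stood at least 2-fold higher in both. Over all tested genes 0.847% did, so the counts of 0 or 1 given here say little about these short lists. Over the NRF2 list the median log2 ratio was 0.01 and -0.14, with 6 genes above 0 and 7 below 0 in both libraries. Over all tested genes 29.0% were above 0 and 40.9% below 0 in both. Gclm, Txnrd1 and Slc7a11 had log2 ratios between -0.38 and -0.21, while Me1, malic enzyme, had 0.60 and 0.90 and Abcc1, a drug exporter, 0.59 and 0.52. Among 9 tested glucocorticoid-responsive genes 0 passed, with a median of 0.16 and 0.05. Of them 6 were above 0 and 2 below 0 in both, beside those same 29.0% and 40.9%. Cebpd, a transcription factor, had log2 ratios of 0.16 and 0.42, and Fkbp5, a standard reporter of that hormone, stood at 70.2 against 98.7 and at 90.7 against 114. The unfolded protein response list had 0 of 12, with a median of 0.01 and -0.11. The ATF4 list had 1 of 17, Vegfa, which is also on the hypoxia list.

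**Figure D3:**
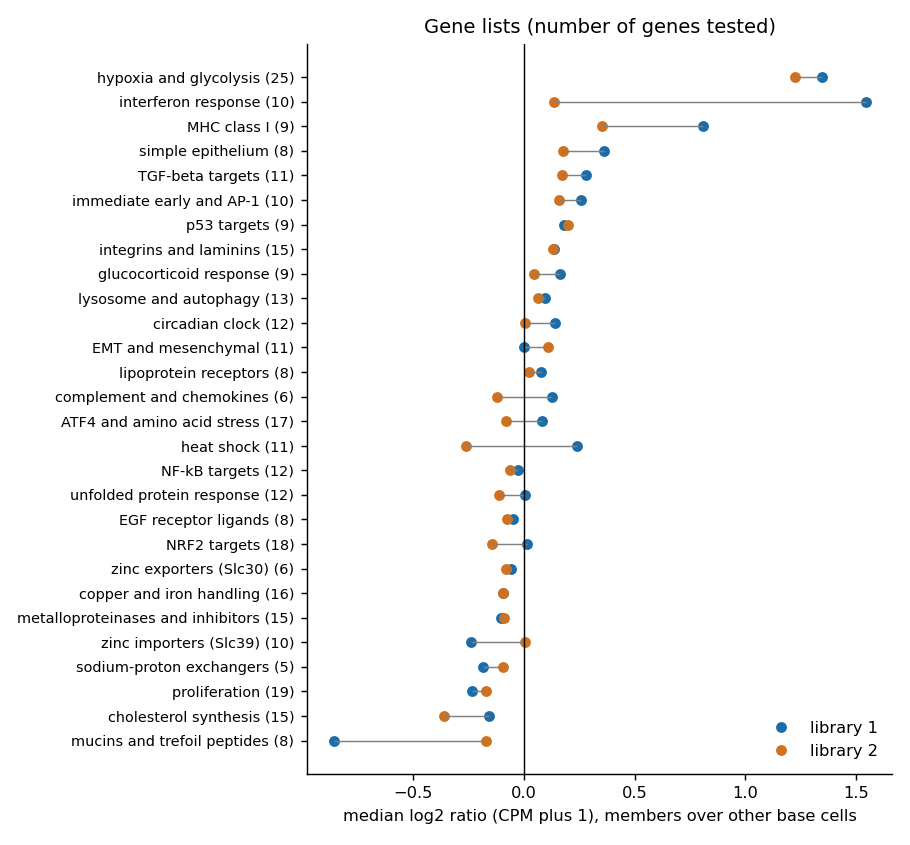
Median log2 ratio (CPM plus 1) of metallothionein-high cells (members) over other base cells for each pathway list with at least 5 tested genes, with the number tested in parentheses. The hypoxia and glycolysis list lies at 1.35 and 1.22, and the interferon list lies apart in the 2 libraries, at 1.54 and 0.14.

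Other programs differed between the libraries. Over the interferon list the median log2 ratio was 1.54 in library 1 and 0.14 in library 2. Of its 10 tested genes 8 stood above 0 and 1 below 0 in both libraries, beside 29.0% and 40.9% of all tested genes. Of the 10, 0 passed 2-fold in both, beside 0.847% higher over all tested genes. Isg15, a ubiquitin-like interferon product, stood at 83.7 against 13.4 CPM in library 1 and at 24.8 against 13 in library 2. Without the cells of cluster 11, described below and led by interferon genes, the list's median was 0.43 and 0.05. The heat shock gene Hspa1b stood at 216 against 30.04 and at 47.8 against 25.6, while its list had a median of 0.24 and -0.26, or -0.06 and -0.26 without cluster 10. In library 1 3 cells gave 43.5% of the Hspa1b UMIs, and without the 3 highest cells its log2 ratio went from 2.81 to 2.30 and from 0.88 to 0.33. Mucins and trefoil peptides had a median of -0.86 and -0.17, and Tff1, a trefoil peptide of gastric mucus, stood at 203 against 611 and at 298 against 364. That median turned to 0.15 and 1.15 against base cells of like hypoxia share, and in library 2 to 0.07 within clusters and 0.08 without cluster 5. Whether these libraries differ in these ratios beyond the spread between tumors cannot be told with 1 library each.

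Of 9 tested MHC class I genes, which present peptides to T cells, 8 stood above 0 in both libraries, beside the 29.0% of all tested genes. Of the 9, 0 passed 2-fold in both, beside 0.847% higher over all tested genes, and the median log2 ratio was 0.81 and 0.35. H2-K1 stood at 730 against 384 CPM and at 1208 against 795, and B2m, the shared light chain, at 149 against 114 and at 182 against 148. Tap1, a peptide transporter, stood at 78.3 against 28.7 (2.73-fold) in library 1 and 1.28-fold higher in library 2. Without the cells of cluster 11 the median was 0.50 and 0.35. Proliferation genes had a median of -0.24 and -0.17, with 0 of 19 past 2-fold, beside 0.0857% lower over all tested genes. The sign of that median turned under several settings, among them to 0.33 and 0.74 against base cells of like hypoxia share, to 0.36 in library 1 with the top 2% of cells and to 0.27 in library 2 without cluster 5. In library 1 3 cells gave 93.1% of the Aurkb UMIs of the metallothionein-high cells, 81.9% of those of Aurka and 75.6% of those of Mki67.

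Hypoxia genes followed metallothionein share over the upper part of the whole range of base cells and not only above the threshold. The genes of the hypoxia and glycolysis list together made up a median of 0.428% and 0.406% of UMIs in cells with no Mt1 or Mt2 UMI, 0.440% and 0.390% in the other cells up to the median share, 0.547% and 0.451% from there to the 75th percentile, and 0.763% and 0.593% between the 75th and 90th percentile. They made up 1.01% and 0.799% from there to the threshold, and among the metallothionein-high cells 1.25% and 1.05% in the lower ones and 1.66% and 1.45% in the top 2% of base cells. The cells with no Mt1 or Mt2 UMI were also the shallowest, at a median of 7583 and 6155 UMIs. The 50 cells just inside and the 50 just outside the threshold had nearly the same median, 0.914% and 0.907%.

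From the cells up to the median share upward, Ndrg1 and Vldlr followed the same order. Across the bands Ndrg1 went from 201 CPM in the cells up to the median share to 761 just under the threshold and 1569 in the top 2% of library 1, and from 142 to 519 and 1276 in library 2. Vldlr went from 20.3 to 76.4 and 158, and from 17.6 to 73.1 and 189. Slc30a1 rose less, from 15.8 to 18.7 and 22.3 CPM in library 1, with 25.2 in the lower metallothionein-high cells. In library 2 it stayed between 11.4 and 15.6 CPM. Mmp13 went from 562 to 281 in library 1 and from 560 to 560 in library 2. For several genes the cells with no Mt1 or Mt2 UMI did not stand lowest. Ndrg1 stood at 203 and 187 CPM in them, and Adm at 10.2 and 13.7 against 7.0 and 4.1 up to the median share. Vegfa stood at 1014 and 1047 against 643 and 575. Slc2a1 went the other way, at 270.5 and 289 against 273.9 and 305, as did Ldha, at 459.5 and 475 against 596 and 602.

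**Figure D4:**
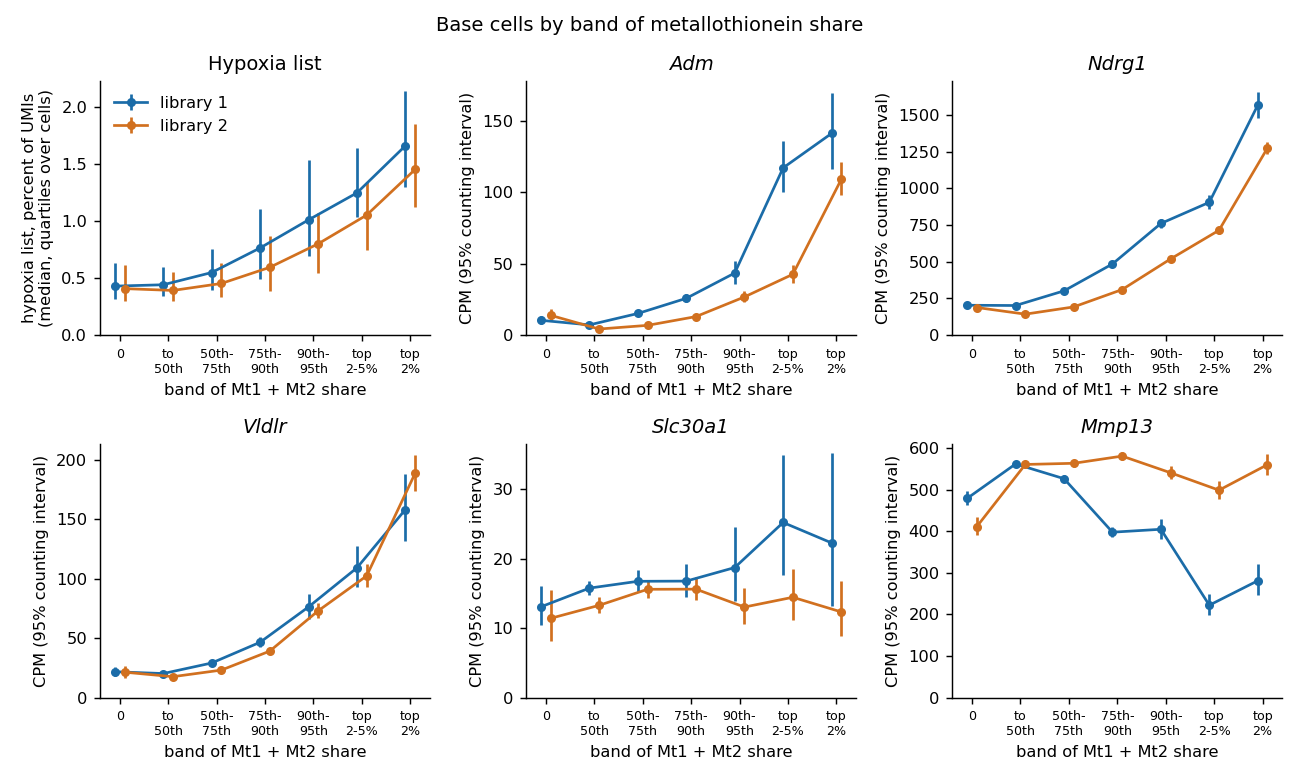
Base cells of each library in 7 bands of Mt1 plus Mt2 share, from cells with no such UMI to the top 2%; the last 2 bands are the metallothionein-high cells. The upper left plot gives the median and quartiles of the hypoxia list's share of UMIs, and the others give CPM with exact 95% counting intervals for Adm, Ndrg1, Vldlr, Slc30a1 and Mmp13. Vldlr climbs to 158 and 189 CPM. Slc30a1 goes from 13.1 to 22.3 CPM in library 1 and stays between 11.4 and 15.6 in library 2.

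The metallothionein-high cells overlapped with the most hypoxic cells but were not the same set. Of the 526 cells 187 (35.6%) were also in the top 5% of base cells by hypoxia list share, which holds 526 cells as well. In library 1 the overlap of 69 cells was 47.3% of the metallothionein-high cells and 25.2% of the hypoxic set, and in library 2 the 118 shared cells were 31.1% and 46.8%. The median hypoxia share was 1.41% and 1.19% in the metallothionein-high cells and 0.490% and 0.459% in the other base cells. Thinning each cell to 3000 UMIs gave 1.42% and 1.17% against 0.5% and 0.467%. The hypoxic cells outside the metallothionein-high set had a median metallothionein share of 0.0616% and 0.0732%, against 0.0198% and 0.0330% in base cells outside the hypoxic set.

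When cells were compared with other base cells of like hypoxia share, most of the 79 genes lost their 2-fold difference. In 20 bins of hypoxia share, 8 genes stood at least 2-fold higher in both libraries, of which Mt1 and Mt2 were among the 79. Of the 79 genes 50 still stood above 0 in both libraries, and 29 did not. Among those 29 were Vegfa, which went from 1.38 to -0.37 and from 1.14 to -0.62, and Cdkn1a, at -0.15 and -0.40. Slc2a1 stood at -0.091 and Acan at -0.19 in library 2. The log2 ratio of Vldlr went from 2.20 to 0.46 and from 2.26 to 0.48, and that of Adm from 3.26 to 0.68 and from 2.87 to 0.02. The other 6 of the 8 genes past 2-fold within bins were Aldh3a1, an aldehyde dehydrogenase, Ffar4, a receptor for fatty acids, Neurl1b, and the mitotic genes Cdc20, Hmmr and Nusap1, with log2 ratios between 1.01 and 1.48. In library 1 3 cells gave 76.9% of the Cdc20 UMIs of the metallothionein-high cells, 79.1% of those of Hmmr, 91.1% of those of Nusap1 and 70.4% of those of Neurl1b, so those library 1 values rest on very few cells. Csf2 and Nrk stood lower. These bins were chosen after the data were seen, and the bins use the list's own genes, so the list itself could not differ there. Of the 79 genes 15 are on that list, among them Vegfa, Slc2a1 and Adm. Their ratios were lowered by the comparison itself, so their fall is no finding about them.

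A few metallothionein-high cells had low hypoxia share. In library 1 10 of 146 (6.85%) and in library 2 23 of 380 (6.05%) lay at or under the median of the other base cells. Mt2 stood at 904 and 831 CPM in them against 837 and 923 in the metallothionein-high cells of higher hypoxia share, and Mt1 at 1002 and 1526 against 2160 and 2188. Adm had 0 and 3 UMIs in them, and Vldlr stood at 17.3 (3.56 to 50.5) and 24.1 CPM (12.8 to 41.2), near the 27.0 and 28.2 of the other base cells. Of genes picked after their values were seen, Elf3, an epithelial transcription factor, stood at 535 and 308 CPM in them against 147 and 154 in the rest. Icam1, an adhesion molecule for leukocytes, stood at 426 and 121 against 36.4 and 49.1, and Gbp2, an interferon-induced GTPase, at 605 and 145 against 50.9 and 40.1. In library 1 the 105 Gbp2 UMIs came from 4 of the 10 cells, so these levels rest on very few cells.

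The cells were spread over most clusters of base cells, but not evenly. Clusters were made without Mt1 and Mt2, gave 12 groups and are called by number and leading genes. Cluster 10, led by Hspa1b, Adm and Ndrg1, held 31 metallothionein-high cells of 105 in library 1 (29.5%, 21.02 to 39.2) and 20 of 62 in library 2 (32.3%, 20.9 to 45.3). Its median depth was 6744 UMIs. Cluster 5, led by Ffar4, H2-K1 and Nlrc5 with Vldlr and Crisp1 among its top 10, held 16 of 90 (17.8%) and 149 of 959 (15.5%). Cluster 11, led by Ifit3 and Cxcl10, held 20 of 78 (25.6%) and 8 of 61 (13.1%).

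Different clusters supplied the cells in the 2 libraries. Cluster 5 held 39.2% of the metallothionein-high cells of library 2 and 10.96% of those of library 1, and the cluster itself made up 18.1% and 1.73% of base cells in those libraries. In library 1 clusters 3 and 10 held the most, 21.9% and 21.2%. Few lay in cluster 2, led by Chsy3 and Spp1 (0.523% and 2.15% of its cells), or in cluster 9, led by Muc5b and Muc5ac, with 1 of 278 cells in library 1 and no cell of library 2. Cluster 4, led by cell cycle genes, held 4 in library 1 (1.102% of its cells) and 48 in library 2 (4.93%), which was 12.6% of the metallothionein-high cells of library 2. Cluster 6 held 0 of 26 cells in library 1 and 15 of 538 in library 2 (2.79%). Clusters 8 and 12, led by macrophage and endothelial genes, together held 9 of the metallothionein-high cells in library 1 and 11 in library 2. Cluster 8 had 224 and 219 base cells in all and cluster 12 had 40 and 24, so base cells are tumor cells by the rule alone. Without those clusters 77 genes stood higher.

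**Figure D5:**
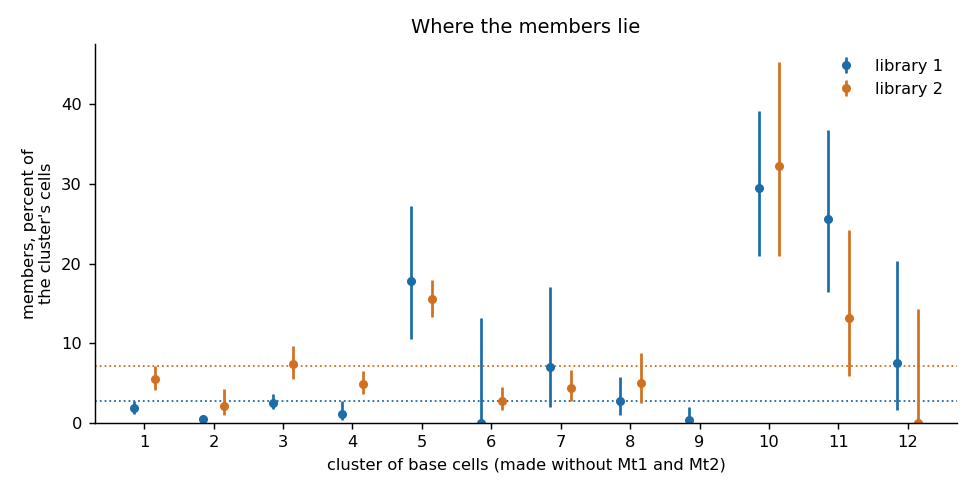
Share of each cluster's cells that are metallothionein-high (members), with exact 95% intervals, for clusters with at least 20 cells in a library; dotted lines give the share over all base cells, 2.80% and 7.17%. The points of clusters 5, 10 and 11 lie above these lines in both libraries and those of cluster 2 below them; the library 2 interval of cluster 11 spans its line.

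Within single clusters the hypoxia list still stood higher in most. In clusters with at least 20 metallothionein-high cells, its median log2 ratio was 0.88 and 0.86 in cluster 1, 0.82 and 0.97 in cluster 3, and in library 2 it was 1.12 in cluster 4, 1.01 in cluster 5 and 1.71 in cluster 7. It was 0.26 and 0.33 in cluster 10, where the other cells were also high, with Adm at 292 against 270 and at 354 against 193 CPM. It was 0.42 in cluster 11 of library 1. When each cell was compared only with cells of its own cluster, the count of higher genes went from 79 to 14 and that of the hypoxia list from 15 to 2.

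The 14 genes were all among the 79. They were Mt1, Mt2, Adm, Ndrg1, Vldlr, Il33, Cyp2s1, Kbtbd11, Gbe1, Fam162a, Selenbp1, Slc7a2, Loxl2 and Cthrc1. The log2 ratio of Vldlr was 1.13 and 1.81 in that comparison, that of Cyp2s1 1.47 and 1.65 and that of Gbe1 1.18 and 1.502. Ambp was the 1 gene that stood lower, at -1.12 and -1.39.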

How the data were processed

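The deposited file is 1 matrix of raw UMI counts per gene and barcode for both samples, as the authors deposited it. The submitters' processing notes name Cell Ranger 8.0.0 and the build mm10, and the file header names Cell Ranger too. The labels give no treatment for either library number. Base cells and the top 5% by Mt1 plus Mt2 share of UMIs were selected from these counts. UMIs were summed over cells within a library and scaled to CPM. Genes with at least 10 CPM over the base cells of each library were tested for a log2 ratio (CPM plus 1) of at least 1 in both libraries. Folds have exact conditional binomial and shares Clopper-Pearson 95% intervals. Counting precision is the limit given; PCR and cell-to-cell spread are not in it. No test was run, since cells are not replicates.

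Genes named are the 5 markers, Mt3, Mt4 and Mtf1, the 20 with the highest and up to 10 with the lowest ratio in both libraries, and list genes as examples picked after their values were seen. The members and lists were chosen with earlier results of these data known. Some lists had genes the matrix lacked or could not match by a unique symbol (Aldoa, Bmal1, Eno1, Ero1a, Ftl1 and Mmp1a). Mitochondrial share is that of genes of the mitochondrial genome.

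Clusters used 2000 variable genes without Mt1 and Mt2, 30 principal components, 15 neighbors and Leiden resolution 0.5 (scanpy 1.11.5, leidenalg 0.10.2, igraph 0.11.9, scikit-learn 1.9.0). Doublets were scored with Scrublet, and leaving out the highest scores at 0.8% per 1000 cells, which removed 1218 and 1141 barcodes, was an alternative. The others were median-of-ratios factors, TMM factors from edgeR 4.0.16 (R 4.3.3), totals without metallothioneins, other filters and added CPM, per-cell means, thinning to 3000 UMIs, other thresholds, comparison within clusters, depth bins or hypoxia bins, and leaving out clusters or the 3 highest cells. The 2-fold call was also tried on simulated sums with counting error only, so that trial says nothing about spread between cells. Promoters matched by symbol for 7474 of 9330 tested genes, and for 60 of the 79 higher genes. Of those 60, 35.0% held the metal core and 75.0% the hypoxia core, beside 35.3% and 64.5% of the 7474. The higher genes include Mt1 and Mt2, which chose the cells, and the difference in shares was not tested. Python 3.11.15, numpy 2.4.6, scipy 1.17.1, pandas 2.3.3 and matplotlib 3.10.9 were used.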

Additional observations from a re-analysis of the deposited data

Results flagged for a closer look

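Barcodes outside the base cells, which entered no comparison above, also reached the metallothionein share of the lowest chosen cell. In library 1 there were 111 such barcodes of 5488 with at least 3000 UMIs that were not base cells (2.02%, exact 95% interval 1.67 to 2.43), and in library 2 there were 180 of 4614 (3.90%, 3.36 to 4.50). Most were barcodes under the keratin minimum, 94 of 3949 and 124 of 3371. The hypoxia list made up a median of 1.24% and 0.995% of UMIs in the barcodes at or over that share and 0.482% and 0.394% in those under it. Which cell types they hold was not tested.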

How the results depend on the processing

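The 79 higher genes became 40 with a minimum of 50 CPM, 132 with any gene counted at least once in each sum, 52 with 10 CPM added, 44 with the top 10% of cells, 14 within clusters and 8 within bins of hypoxia share. The 8 lower genes became 0, 16, 1, 1, 1 and 2 in that order, 24 with cells thinned to 3000 UMIs, 18 with the top 2%, 2 with the top 5% of each library, 14 with cells chosen by Mt1 alone and 5 without cluster 5. The 15 higher hypoxia list genes became 2 within clusters and 0 within hypoxia bins, which are made from that list's own share. Under every other setting run they numbered 12 to 18. The shares of 2.80% and 7.17% became 4.09% and 10.1% when cells were thinned and chosen again, 0.978% and 3% with the top 2%, 5.81% and 14.1% with the top 10%, and 2.31% in library 1 with at least 10000 UMIs; library 2 had the larger share each time.

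Mmp10 turned to a log2 ratio of 0.74 with the top 10% and 0.85 with the top 5% of each library, both in library 1. Among the named genes called higher or lower, the sign turned within hypoxia bins for Thbd in library 2 (-0.70), Syt17 in library 1 (-0.18), Zfp469 (-0.083 and -0.14), Ankrd37 (-0.25 and -0.17), P4ha2 (-0.048 and -0.13), Gsta3 (0.027 and 0.17), Vegfa (-0.37 and -0.62), Cdkn1a (-0.15 and -0.40), Aqp3 (-0.20 and -0.25) and, in library 2, Egln3 (-0.034), Slc2a1 (-0.091), Pfkfb3 (-0.40), Acan (-0.19), Pgf (-0.29) and Hmox1 (-0.28). Of these, Ankrd37, P4ha2, Vegfa, Egln3, Slc2a1 and Pfkfb3 are on the hypoxia list that made the bins. Genes that were not called, such as Crisp1 (0.58 and 0.29), also turned. For the genes named by rule or as examples, 2322 of 3344 recomputed ratios stayed near their value, 998 moved and 24 turned; for list medians 956 of 1260 stayed and 304 moved. The cause was not tested. Cells with few UMIs can pass the threshold on few Mt1 and Mt2 molecules, down to 5 and 2 of Mt1. No paired analysis was possible because each treatment has 1 sample and no column names it.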

Other observations

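Of 8 tested lipoprotein receptor genes 1 stood at least 2-fold higher in both libraries, Vldlr, beside 0.847% of all tested genes. The list's median log2 ratio was 0.08 and 0.02. Cholesterol synthesis genes had a median of -0.16 and -0.36, with 11 of 15 below 0 in both libraries and 0 past 2-fold, beside 3817 of all 9330 tested genes below 0 in both (40.9%), and Cyp51, a sterol demethylase, stood at 58.1 against 91.4 CPM and at 73.1 against 114. Sodium-proton exchangers, the family that EIPA is known to block, had a median of -0.18 and -0.10 over 5 tested genes. Of these 0 passed 2-fold, beside 0.847% higher and 0.0857% lower over all tested genes, so the count says little. Aqp3, a channel for water and glycerol, stood at 89.9 against 29.9 CPM in library 1 and at 159 against 61.8 in library 2, and Higd1a, a hypoxia-induced mitochondrial protein, at 469 against 130 and at 416 against 148.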
